A study of Paulownia elongata with 2 samples.

Results

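The steadily expressed leaf transcripts described here are 286 assembled genes of Paulownia elongata, a fast-growing tree grown for biomass, out of 58997 in the deposited assembly. They were chosen by their values: a mean of at least 200 over the 4 columns of the deposited normalized count matrix, and a highest library no more than 1.3 times the lowest. Of the 289 assembled genes that met these limits, 3 were left out because the mean transcript length was at least 1.1 times greater in both libraries of a treatment than in both of the other. The members made up 7.52% of the 3802 assembled genes at that level. Low spread across treatments is therefore the selection and not a finding, and the values of the contrast are given below as a description, with no test.

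The salt group consisted of 3-year-old potted trees given NaCl solution at 125 mM, 1.5 L a day for 10 days, and the control group, labelled WT for wild type, of trees of the same age given that volume of water. The label of the salt group gives no genotype. All stood in a greenhouse in peat-based soil. Total RNA from leaves was sequenced from 2 salt libraries (SS1 and SS2) and 2 control libraries (AC1 and BC1). The labels do not state if separate trees stood behind the 2 libraries of a group, so their spread may be partly technical, and the label of the salt record names SS2 and SS4 where the files are SS1 and SS2. The libraries held 3752659 to 4682437 rounded expected counts, and the component with most counts took 2.62% and 11.6% of the counts in SS1 and SS2, against 29.3% and 4.38% in AC1 and BC1.

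Salt in the root zone lowers the water available to a leaf and, as sodium and chloride reach the blade, disturbs its ion balance. Leaf cells are known to change transcripts for osmolyte synthesis, ion transport and hormone signalling, while transcripts for basic cell upkeep are commonly taken as stable references. Neither kind can be named here: no file links an assembly ID to a named gene, a product or a sequence, so the members carry IDs only, their roles are unknown, and leaf markers could not be looked up. In an ID such as TR12246|c1_g1, the part before the bar is the component, a set of linked assembled sequences, and an assembled gene holds 1 or more assembled transcripts.

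The most abundant members lay well below the top of the leaf transcriptome. TR15296|c0_g1, a single assembled transcript of 1431 bases, had 2891 and 2265 normalized counts in SS1 and SS2, against 2602 and 2240 in AC1 and BC1. It was the member with the highest mean, 2500, and 116 assembled genes had a higher one. Its highest and lowest libraries belong to different treatments, and the treatments overlap: 2578 ± 442 in salt and 2421 ± 256 in control (SD, n = 2 each). TR22625|c0_g1, of 1498 bases and 7 transcripts, had 2189 and 2605 normalized counts in SS1 and SS2, against 2222 and 2593 in AC1 and BC1. Here the libraries fall into a low pair, SS1 and AC1, and a high pair, SS2 and BC1, so the spread lay within the treatments and the ratio of the salt mean to the control mean was 0.996. TR7408|c1_g1, of 2079 bases and 1 transcript, had 1265 and 1121 in SS1 and SS2, against 1287 and 1405 in AC1 and BC1, with both salt libraries below both control libraries. TR5682|c1_g1, of 1811 bases and 9 transcripts, had 912 and 1122 in SS1 and SS2, against 867 and 1022 in AC1 and BC1. It too was low in SS1 and AC1 and high in SS2 and BC1.

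TR12246|c1_g1 combined a high level with a very small spread. It had 1284 and 1288 normalized counts in SS1 and SS2, against 1297 and 1274 in AC1 and BC1, and its highest library was 1.02 times its lowest. Its means were 1286 ± 2.58 in salt and 1286 ± 16.2 in control (SD, n = 2 each). With 24 assembled transcripts it was also the member with most transcripts, and its mean length was 2547 bases. Only TR30427|c1_g1, of 1907 bases and 7 transcripts, varied less among the members, with 300.02 and 296 normalized counts in SS1 and SS2, against 296 and 296 in AC1 and BC1. TR24570|c0_g3, of 1122 bases, followed with 229 and 227 in SS1 and SS2, against 234 and 239 in AC1 and BC1. TR27269|c0_g1 and TR7666|c4_g1 completed the 5 with the smallest spread, at 480 and 355 normalized counts on average and highest-over-lowest ratios of 1.07 each.

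**Figure D1:**
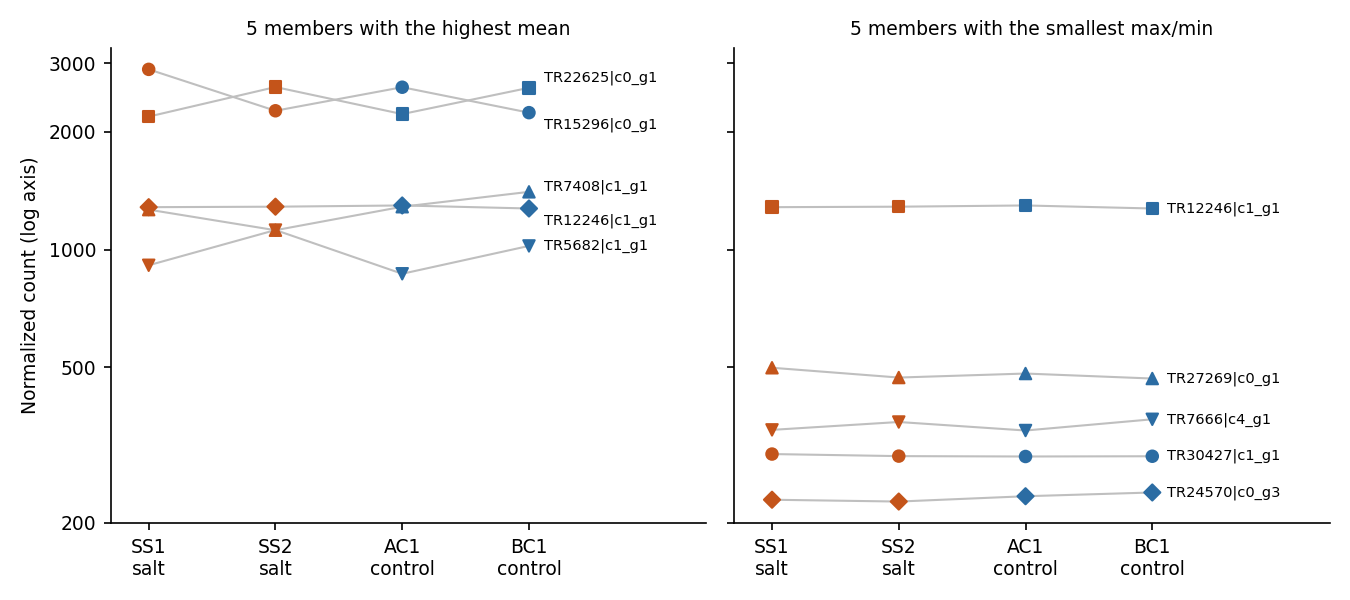
Normalized counts (log axis) in the 2 salt libraries (SS1, SS2) and the 2 control libraries (AC1, BC1) for the 5 members with the highest mean (left) and the 5 with the smallest ratio of highest to lowest library (right). Each symbol is 1 library and grey lines join the libraries of 1 member; TR15296|c0_g1 and TR22625|c0_g1 cross between 2189 and 2891, while TR12246|c1_g1, in both panels, stays between 1274 and 1297.

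Over all 286 members the mean level ran from 202 to 2500 normalized counts with a median of 308, and 244 members lay below 500. The median ratio of highest to lowest library was 1.22 (quartiles 1.16 and 1.27), and 17 members stayed within 1.1. The 3789 assembled genes at that level with no library at 0, members included, had a median ratio of 2.15. The median coefficient of variation over the 4 libraries was 8.89% for members, beside 34.1% for the 3802 at that level. Within a treatment, the median ratio of the higher to the lower library among members was 1.094 for the salt pair and 1.105 for the control pair.

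The members' variance over the libraries was mostly a few times that of counting noise or less. A chi-square statistic of the 4 expected counts against a common level, divided by its 3 degrees of freedom, is about 1 when only counting noise is present. Its median was 2.47 over the members (quartiles 1.48 and 3.66) and 44.0 over the 3802 at that level, and it was at most 1 for 40 members. The rule limits the spread of the same 4 libraries, so the low values in members follow from the choice. In this statistic the same relative spread weighs more at high counts. It was highest in the most abundant member, TR15296|c0_g1, at 42.1, and was 22.6 for TR22625|c0_g1, the next by mean. A high level did not always go with a high value: it was 0.061 for TR12246|c1_g1, the next again by mean. For TR30427|c1_g1 it was 0.015. The lowest count of any member in any library was 155.

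The limits of the rule cut through a continuous range. Just inside the limit of 1.3 lay TR5699|c2_g1 and TR1126|c0_g1. TR1126|c0_g1 had 275 and 299 normalized counts in SS1 and SS2, against 326 and 251 in AC1 and BC1. Just outside lay TR23829|c0_g1, with 229 and 277 in SS1 and SS2, against 290 and 223 in AC1 and BC1, and TR22752|c2_g1, with 545 and 588 against 637 and 708. The members nearest the minimum of 200 were TR34424|c0_g1 and TR5707|c1_g1, whose means were both 202, and the nearest below were TR3138|c0_g1 and TR4070|c1_g1, whose means were both 199. The 3 left out for length, TR3200|c0_g1, TR5751|c1_g1 and TR7432|c2_g1, had highest-over-lowest ratios of 1.24, 1.25 and 1.26.

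**Figure D2:**
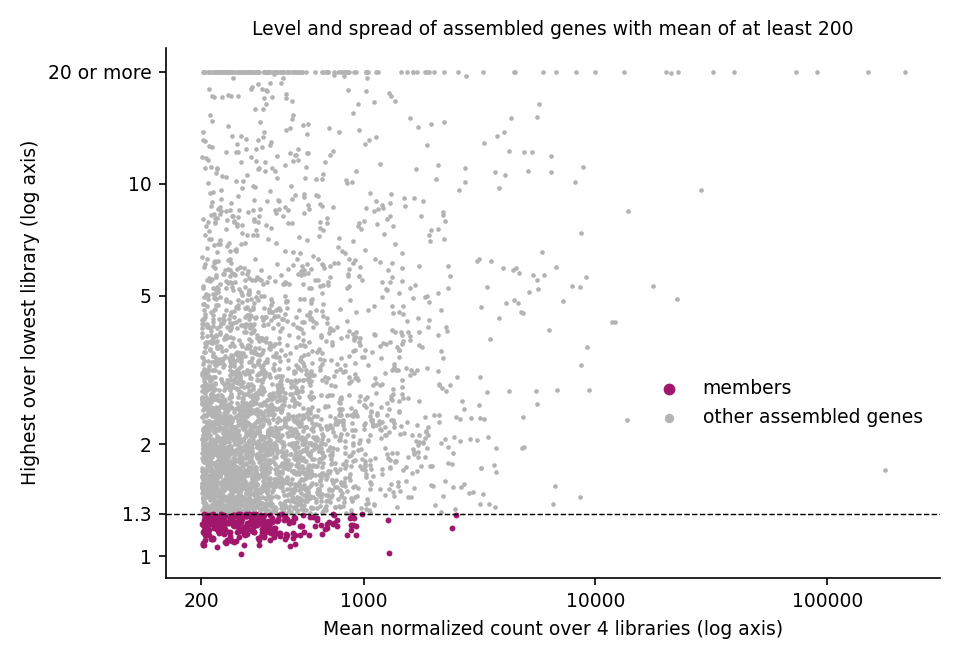
Mean normalized count over the 4 libraries (x, log axis) against the ratio of the highest to the lowest library (y, log axis, values over 20 drawn at 20) for the 3802 assembled genes with a mean of at least 200. The 286 members lie under the dashed line at 1.3, where the 3 left out for length are grey, and 282 of them have a mean below 1000.

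With the deposited scaling, the members divided almost evenly across treatments. The salt mean was above the control mean in 147 members and below it in 139, and the median ratio of salt to control was 1.01, with a lowest of 0.804 and a highest of 1.24. Both salt libraries lay above both control libraries in 55 members (19.2%), where the background over 20018 assembled genes was 22.3%. They lay below in 48 members (16.8%), where the background was 17.6%, and in 183 members the treatments overlapped. With TMM, the salt mean was above the control mean in 110 members, with 25 wholly above and 76 wholly below. Over the assembled genes at that level, 17.3% lay wholly above with TMM. With TPM 217 members lay wholly above and 0 below, where 35.7% of the assembled genes at that level lay wholly above. The shares wholly below at that level are not given for TMM and TPM. Since the rule used this contrast, nothing is read from these shares. SS1 was most often the highest library, in 90 members (31.5%, beside 19.5% at that level). AC1 was most often the lowest, in 83 (29.0%, beside 27.6%). Over the assembled genes at that level, BC1 was most often the highest (38.4%) and SS1 most often the lowest (30.7%). The rule used these values too, so nothing is read from them.

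The members furthest apart between treatments had small differences, as the rule requires. TR5699|c2_g1, of 1394 bases, had 240 and 257 normalized counts in SS1 and SS2, against 203 and 197 in AC1 and BC1, a ratio of 1.24. TR9211|c1_g1, of 2287 bases, had 291 and 312 in SS1 and SS2, against 242 and 245 in AC1 and BC1, a ratio of 1.24. At the other end, TR6780|c2_g1, of 1707 bases, had 644 and 668 in SS1 and SS2, against 798 and 833 in AC1 and BC1, a ratio of 0.804. TR18525|c4_g1, of 1246 bases, had 212 and 220 in SS1 and SS2, against 255 and 258 in AC1 and BC1, a ratio of 0.842. In these 4 members the libraries of a treatment lay closer to each other than the treatments did.

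With 2 libraries per treatment, a small observed difference did not pin down the underlying one. In edgeR's quasi-likelihood fit over 20018 assembled genes, which shares the estimate of spread among them, the standard error of a member's log2 fold change was 0.34 at the median. The 95% interval reached 0.86 on either side of the fitted log2 value at the median, a factor of 1.82, and for 117 of the 286 members it included a 2-fold change in 1 direction or the other. For TR12246|c1_g1 the fitted log2 fold change was -0.06 (interval -1.09 to 0.97). That fit called 0 assembled genes in all at an adjusted p under 0.05 (background 0%), with 1749 at an unadjusted p under 0.05, and DESeq2 called 345 (1.73%), none of them members.

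Whether the members are steady depended on how the libraries were put on a common scale. The deposited matrix multiplies each library's expected counts by 1 constant, 0.792 for SS1 and 0.904 for SS2, against 1.16 for both AC1 and BC1, and these constants match median-of-ratios size factors to within 0.1%. The same members expressed as TPM, values scaled by length that sum to a fixed total in every library, held 2.16% and 1.83% of SS1 and SS2, against 1.51% and 1.57% of AC1 and BC1. The share was 1.995% ± 0.24 in salt and 1.54% ± 0.04 in control (SD, n = 2 each). On the TPM scale 285 of the 286 members had a higher salt mean, with a median ratio of salt to control of 1.304, and 30 stayed within a highest-over-lowest ratio of 1.3. Scaled to library totals, all 286 had a higher salt mean, at a median ratio of 1.39, and 0 stayed within 1.3. With TMM, edgeR's trimmed-mean scaling, 226 stayed within 1.3 and the median ratio was 0.967.

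These shifts apply to the level as a whole. The median log2 ratio of salt to control over the members was 0.01 with the deposited scaling, -0.05 with TMM, 0.38 with TPM and 0.48 with library totals. The medians over the 3802 assembled genes at that level were -0.11, -0.16, 0.26 and 0.35 in the same order. Steady is meant here relative to the deposited scaling. In RNA from a whole leaf, fewer cells of a type and less RNA per cell cannot be told apart. TR12246|c1_g1, nearly flat in normalized counts, had 159 and 152 TPM in SS1 and SS2, against 110 and 114 TPM in AC1 and BC1. TR6780|c2_g1, which had the lowest ratio of salt to control in normalized counts, had 131 and 106 TPM in SS1 and SS2, against 110 and 119 TPM in AC1 and BC1, and was among the 30. In normalized counts these 30 had salt-over-control ratios from 0.804 to 0.992.

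**Figure D3:**
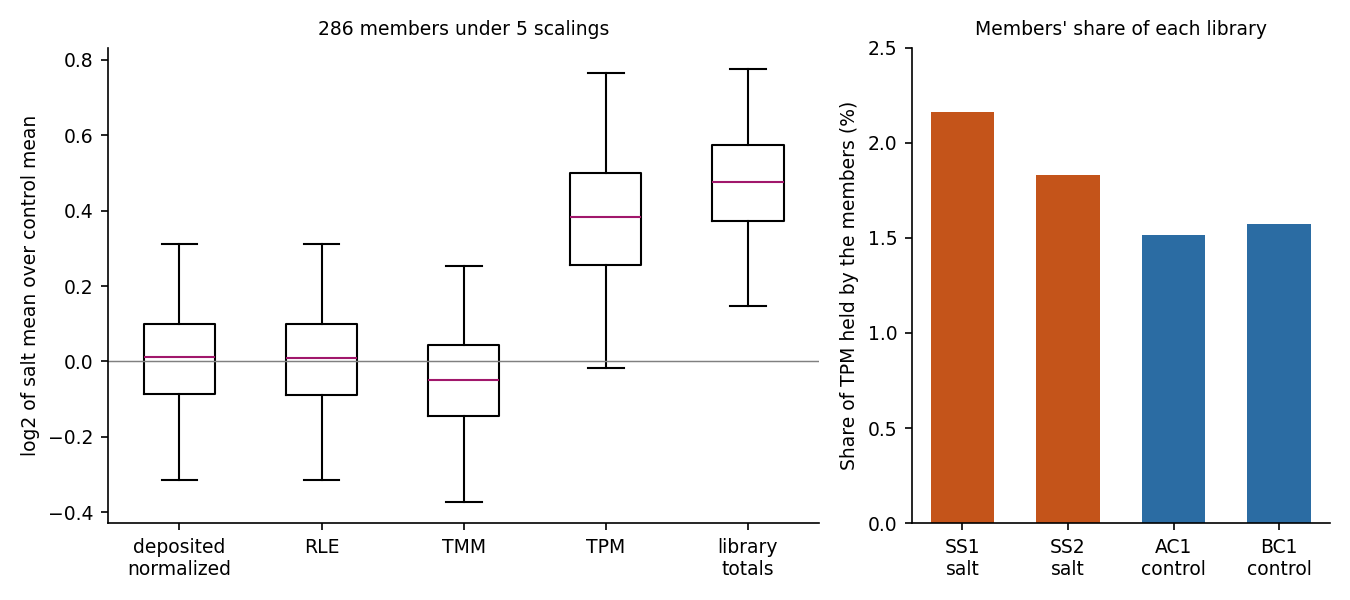
Left, log2 of the salt mean over the control mean of the 286 members under 5 scalings of the same 4 libraries; boxes give the quartiles, lines the medians and whiskers the lowest and highest member, and the medians run from -0.05 with TMM to 0.48 with library totals. Right, the share of each library's TPM held by the members, 2.16% and 1.83% in the salt libraries and 1.51% and 1.57% in the control libraries.

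Steady members were rare among the most abundant transcripts. They made up 9.21% of the 1488 assembled genes with means of 200 to 300 (95% Wilson interval 7.84 to 10.8) and 9.18% of the 1166 from 300 to 500. The share was 5.32% of the 714 from 500 to 1000 (interval 3.90 to 7.22). Of the 434 assembled genes at 1000 or more, 4 were members, and none of the 52 at 5000 or more was, which allows a share of up to 6.88% by the same interval. Relative counting noise is smaller at higher levels, and the cause of the lower shares there was not tested. These intervals cover counting error only, and assembled genes are not independent of each other.

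Most members were assembled genes with several transcripts. Only 33 of the 286 (11.5%, interval 8.34 to 15.8) held a single assembled transcript, beside 951 of the 3802 at that level (25.0%, interval 23.7 to 26.4). The median was 4 transcripts in members and 3 at that level. The share of members was 3.47% among assembled genes with 1 transcript, 5.26% with 2, 9.52% with 3 and 11.1% with 6 or more. The order was also seen within levels: from 200 to 300 the share was 4.49% with 1 transcript, 9.25% with 2 to 3 and 11.9% with 4 or more, and from 300 to 500 it was 3.26%, 9.25% and 12.4%. From 500 to 1000 the share was 3.21%, 3.13% and 8.25%, with the first 2 classes close to each other, and at 1000 or more there were too few members to compare. At similar lengths the shares were 3.15%, 8.57% and 10.9% among assembled genes of 1000 to 2000 bases, and 5.96%, 7.40% and 10.3% from 2000 bases up. The number of transcripts was not used by the rule. When the members were chosen again with library totals, the share with 1 transcript was 24.4% of 45, beside 24.8% at that level, so this feature did not hold under that scaling; with TPM it was 25.3% of 75, beside 36.0%.

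Short assembled genes were few. The median length was 1758 bases in members and 1699 at that level, and 12 members were shorter than 1000 bases. None of the 50 assembled genes under 500 bases and 2.49% of the 481 from 500 to 1000 bases were members, against 7.35% to 8.96% in the classes from 1000 bases up. The longest member, TR22757|c1_g1, of 5926 bases, had 217 and 213 normalized counts in SS1 and SS2, against 238 and 224 in AC1 and BC1. Expected counts were whole in all 4 libraries for 94.8% of members and 91.6% of those at that level. RSEM gives fractional counts where it shares a read between assembled genes.

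**Figure D4:**
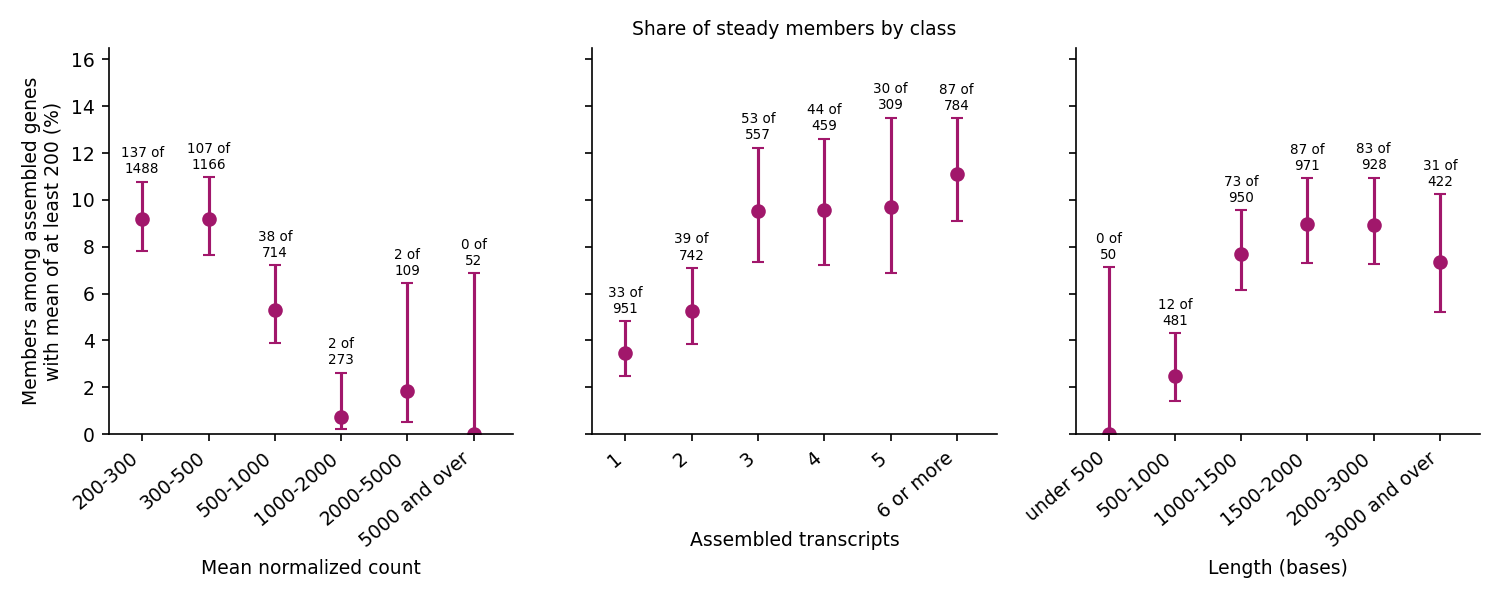
Share of members (%) among the 3802 assembled genes with a mean of at least 200, by mean normalized count, number of assembled transcripts and length in bases; points are shares, bars 95% Wilson intervals, and the numbers give members of assembled genes in each class. The share falls from 9.21% in the lowest level class to 0% in the highest, and is 3.47% with 1 transcript and 11.1% with 6 or more.

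The estimated mixture of transcripts varied between libraries about as often in members as in other assembled genes of several transcripts. The length given for an assembled gene is averaged over its transcripts by their estimated abundance in that library. The highest length was at least 1.1 times the lowest over the 4 libraries in 96 members (33.6%, beside 26.6% at that level), and at least 1.3 times in 12 (4.20%, beside 5.39%). Among the 253 members with 2 or more transcripts, 37.9% reached 1.1, beside 35.5% of those with 2 or more transcripts at that level, a share near the background. How far such a length moves by estimation alone was not tested. TR8043|c3_g1, with 5 transcripts, had the largest length spread. Its normalized counts were 196 and 197 in SS1 and SS2, against 210 and 209 in AC1 and BC1, while its mean length was 2270 and 1578 bases in SS1 and SS2, against 1787 and 2989 bases in AC1 and BC1. Its TPM accordingly varied more, at 27.9 and 35.2 in SS1 and SS2, against 27.5 and 16.3 in AC1 and BC1. TR24807|c1_g1, with 11 transcripts, had lengths of 2883 and 1861 bases in SS1 and SS2, against 3145 and 2438 bases in AC1 and BC1. In both, the lengths of the treatments overlapped, and lengths apart between treatments had been left out by the rule.

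The authors' deposited tables of comparisons, made from the same libraries, listed no member as changed. They rest on the contrast that the rule used. The lack of listed members and their high probabilities of equal expression therefore follow largely from the choice, and nothing is read from them. In the authors' deposited table of posterior probabilities, 279 of the 286 members had a probability of equal expression of at least 0.95, beside 63.6% of the 3802 at that level. The authors' deposited short table of 646 held 0 members (background 1.1% over all assembled genes), beside 7.50% of the 3802 at that level. The lowest probability of equal expression in the authors' deposited table among members was 0.169, for TR27299|c1_g1, singled out after its values were seen. It had 628 and 569 normalized counts in SS1 and SS2, against 487 and 512 in AC1 and BC1.

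Cuffdiff gives values for loci within single assembled transcripts. The authors' deposited Cuffdiff table has 349 loci on 197 members, and 0 were marked significant (background 0.87%); 2 (0.583% of those tested) had an unadjusted p under 0.05, beside 9.77% of tested loci at that level. Its conditions are named q1 and q2, with no word on which is salt. The median absolute log2 ratio between the conditions was 0.24 for members' tested loci and 0.53 at that level, in the authors' deposited table. Of 100 members with at least 2 loci with values in both conditions, 53 (53.0%) had loci with ratios on opposite sides of 1, beside 35.3% at that level, and in 17 (17.0%) the loci differed by at least 1 on the log2 scale, beside 25.5% at that level. A total fixed near a ratio of 1 makes opposite sides more likely, and the table comes from the contrast used by the rule, so nothing is read from either count. In TR34989|c0_g1 the authors' deposited Cuffdiff table gives abundance values of 10.5 in q1 and 3.998 in q2 at a locus on this assembled gene, and of 2.14 in q1 and 7.47 in q2 at another. The assembled gene as a whole had 196 and 203 normalized counts in SS1 and SS2, against 221 and 237 in AC1 and BC1. These 2 loci had q-values of 0.863 and 0.687 in the authors' deposited Cuffdiff table, so neither difference passed there.

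No member shared a component with another member: the 286 came from 286 of the 39968 components. There was little room for sharing. Their components held 23 other assembled genes with a mean of at least 200, and 7.52% of all at that level were members. Of the 286 members, 94 (32.9%, interval 27.7 to 38.5) had no other assembled gene in their component, beside 39.8% of those at that level. The other 192 shared components with 557 further assembled genes, of which 151 had a mean of at least 20 normalized counts. Most of the 151 were outside the limit of 1.3. For the 23 of them with a mean of at least 200 this follows from the choice. Within 1.3 they would have been members, unless left out for length. The median highest-over-lowest ratio of the 151 was 2.06, close to 2.23 over all 14961 other assembled genes of mean at least 20. Of the 151, 9 (5.96%) were within 1.3, beside 4.51%. Counting noise is larger at such low means.

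Of these 151, 23 had a mean of at least 200, and 3 of the 23 are given here: those with the highest and the lowest ratio of salt to control and the most abundant. TR1328|c3_g1, a member, had 255 and 279 normalized counts in SS1 and SS2, against 292 and 325 in AC1 and BC1. TR1328|c4_g1 in the same component had 389 and 378 in SS1 and SS2, against 72.2 and 125 in AC1 and BC1. So in that component the salt libraries were below the control libraries in the member and above them in the other assembled gene. TR18451|c1_g3, a member, had 430 and 448 in SS1 and SS2, against 388 and 448 in AC1 and BC1, while TR18451|c1_g2, with the lowest ratio of the 23 at 0.454, had 408 and 1663 against 3734 and 830. Its spread of 9.14 times lay within treatments as much as between them, since AC1 and BC1 differed more than 4-fold. TR37296|c1_g1 had 854 and 934 in SS1 and SS2, against 975 and 954 in AC1 and BC1. Its neighbour TR37296|c3_g2, the most abundant of the 151, had 5055 and 7818 against 6018 and 7799. Over the 151, 8 had a salt mean at least 2 times the control mean and 11 a salt mean of at most 0.5 times it. The same shares over other assembled genes of mean at least 20 are not given, so nothing is read from these counts.

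**Figure D5:**
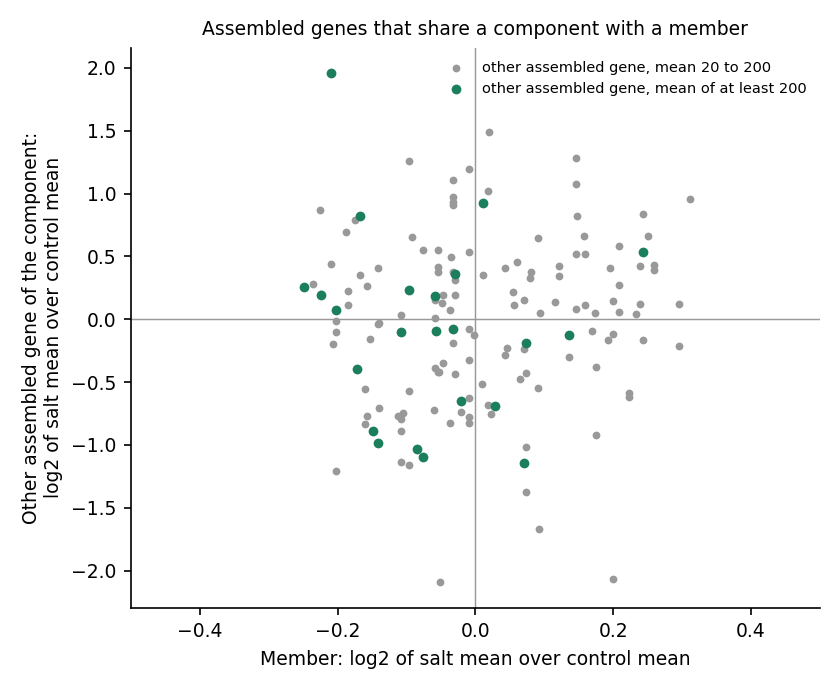
log2 of the salt mean over the control mean in a member (x) and in another assembled gene of the same component (y), for the 151 such assembled genes with a mean of at least 20 normalized counts; green marks the 23 with a mean of at least 200. Members lie within 0.32 of 0 by their choice, while the other assembled genes run from -2.09 to 1.96.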

How the data were processed

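Leaf RNA from salt-treated and control trees was sequenced as 2 libraries each. Per the submitters' processing notes, RSEM 1.3.0, Cuffdiff 2.2.1, Cufflinks 2.1.1, TopHat2 2.0.9 and Bowtie2 2.1.0 were named. Neither assembler nor settings are stated in the labels. The library files hold RSEM lengths, expected counts (estimates that can be fractional) and TPM values, per the file headers. The authors deposited a normalized signal, which equals the expected count times 1 constant per library. They deposited posterior probabilities of equal expression beside a fold ratio (control over salt), and a Cuffdiff table with abundance values, p-values and q-values. Members and classes were chosen with earlier results of these data known. Expected counts were rounded and fitted over all assembled genes with edgeR 4.0.16 (quasi-likelihood, TMM, filterByExpr, Benjamini-Hochberg) in R 4.3.3, tested on simulated data; DESeq2 1.42.0 was an alternative. Members have no test, because the rule used the contrast. Intervals of shares are 95% Wilson intervals. Counts were called whole within 0.005. Named members were the 5 of highest mean, the 5 of smallest spread, the 2 highest and 2 lowest by salt over control, those nearest each limit and the 2 of largest length spread. The longest, the members with loci far apart and the partners were named after their values were seen. Component and gene names could not be matched, so gene lists were not used.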

Additional observations from a re-analysis of the deposited data

How the results depend on the processing

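The number of members, 286, was 295 with TMM (226 of them members), 287 with RLE size factors and 289 without the length exclusion. It was 45 with library totals and 75 with TPM, sharing 0 and 19 assembled genes with the 286. It was 115 at a limit of 1.2, 713 at 1.5, 547 at a minimum of 100 and 42 at a minimum of 500. Leaving out a library relaxes the rule and gave 505 (without SS1) to 688 (without BC1). The median length was 1803 bases at 1.2, 1859 at 1.5, 1875 at a minimum of 500, 1436 with TPM and 1821 with library totals, beside 1688, 1171 and 1700.5 for all at the levels of the minimum of 500, TPM and library totals, so members were longer than their level in each. The share with 1 transcript was 19.0% at a minimum of 500, 25.3% with TPM and 24.4% with library totals, beside 27.8%, 36.0% and 24.8% of all assembled genes at those levels. The share alone in their component was 42.9% at a minimum of 500, above the 39.9% at that level, where it was below with the main rule. The edgeR count of 0 stayed 0 with RLE size factors, with no filter, with the replicate block (AC1 paired with SS2, by replicate numbers in doubt for salt) and without either salt library. It was 345 with DESeq2 and ranged from 0 to 1256 over the libraries left out (1256 without AC1, 489 without BC1), where 1 library is assumed to vary like the other treatment. Deviations of the libraries that share replicate number 1 correlated at 0.106, and so few pairs gave no ground to treat the libraries as paired.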
